A study of Malus domestica with 12 samples.

Results

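Late ecodormancy (Stage 4) was compared with early endodormancy (Stage 1), the last and the first stage of a winter series of apical floral buds of apple (Malus domestica, cultivar "Golden Delicious"). The comparison took the 6 small RNA libraries of these stages out of 12 in the series, namely libraries A, B and C of Stage 1, after 665 chilling hours, and libraries J, K and L of Stage 4, after 1395 chilling hours. Each library was made from wild-type orchard buds pooled over several trees, with no treatment other than the winter itself, and the small RNAs were isolated with the TraPR kit, which enriches for small RNAs bound to ARGONAUTE proteins. Every stage was collected at 1 time point of 1 winter in 1 orchard, so that stage, date and weather cannot be told apart. Each column of the deposited tables was assigned to its stage by the library letter that the study gives it, and replicate numbers could not be attached to single libraries.

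Buds in endodormancy do not grow even under warm conditions, because the block lies within the bud. After enough chilling they enter ecodormancy, in which only the cold outside holds them back. Plant microRNAs are cut from the stem of a hairpin precursor as a duplex of a mature strand and an opposite strand (the star), and the mature strand guides an ARGONAUTE protein to messenger RNAs with a nearly complementary site. Many of the conserved families act on transcription factors of meristems and organs, on hormone signalling or on disease resistance genes.

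The sequences that carried the comparison are printed 5′ to 3′ as DNA letters, with the seed (bases 2 to 8) in capitals. The first 3 passed the test over all sequences. The others are relatives or hairpin partners of these 3, or were chosen from the sequences described below. The list is not complete in order of p.
t11329296_x5768: tATATGGAgggaaatatggtg
ptc-miR159d: cTTGGATTgaagggagctcct
mdm-miR164c: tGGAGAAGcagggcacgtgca
mdm-miR159a: cTTGGATTgaagggagctcc
mdm-miR159d: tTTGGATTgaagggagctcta
t10036822_x303: aAATGAGCggagtggaaagaa
t08515395_x8579: cACTTGCTccccttctccaac
mdm-miR5225c: tCTGTCGTgggtgagatggtgc
mdm-miR390e: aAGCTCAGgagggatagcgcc
mdm-miR482c: tCTTTCCTaaccctcccattcc
mdm-miR482b: tCTTTCCTatccctcccattcc
Names with mdm are apple entries of the miRNA databases. Those with ptc or another prefix are the first name deposited for the identical sequence, an entry of another species. Names with t and x belong to sequences that the authors' program found de novo in a hairpin and that had no database name. The miR159 sequences share the seed TTGGATT. Sequences mdm-miR482c and mdm-miR482b share the seed CTTTCCT and differ by the substitution A10T, counted from the 5′ end of mdm-miR482c.

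The deposited tables held 370 distinct mature sequences, 254 with a database name and 116 without. Listed mature reads came to between 572804 and 2307267 per Stage 4 library and between 1193922 and 2088298 per Stage 1 library, so a count of 0 in a library still allowed up to 3 reads, or a level of 1.30 to 5.24 in CPM (counts scaled to library size, here to all listed mature reads, for counting error only). Library L stood apart from its group. It held reads of 191 of the listed sequences, against 253 in J, 276 in K and 235 to 276 in Stage 1. The miR166 and miR165 sequences took 91.4% of its mature reads, against 78.4% in J, 79.8% in K and 83.7% to 86.1% in Stage 1. Library D of Stage 2, which entered the model of all 12 libraries used below, was similar to L, with 174 listed sequences and 89.9%. The mean share of miR166 and miR165 was 84.7% ± 1.27 (SD, n = 3) in Stage 1 libraries against 83.2% ± 7.14 (SD, n = 3) in those of Stage 4, an exact permutation p of 0.9 (two-sided, where 3 libraries against 3 cannot go below 0.1). Without L the Stage 4 mean was 79.1%, with an exact permutation p of 0.1, the smallest that 3 against 2 allows.

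**Figure D1:**
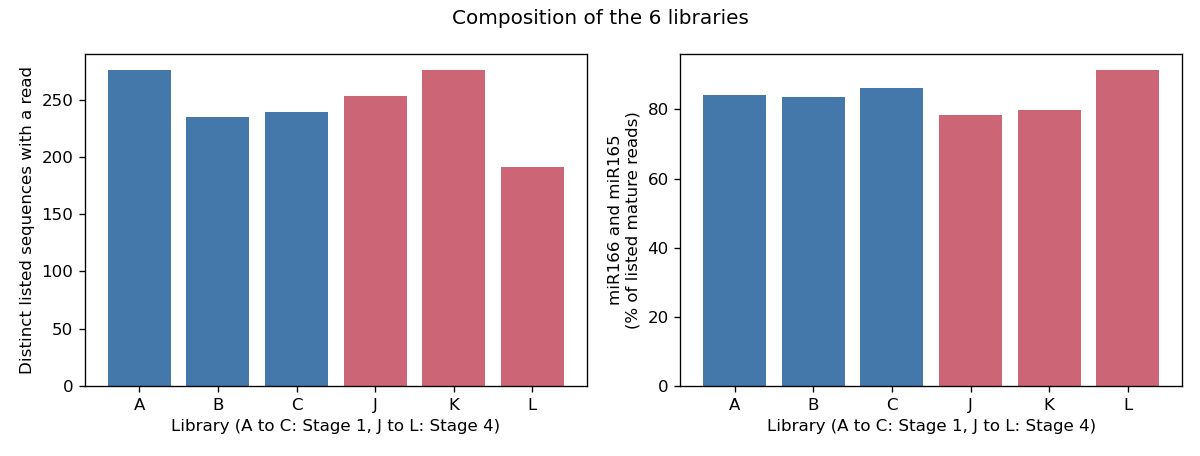
Composition of the 6 libraries. The left bars give the number of distinct listed sequences with a read and the right bars the miR166 and miR165 sequences as a percentage of listed mature reads, with Stage 1 in blue and Stage 4 in red. Library L is the lowest of the 6 on the left, at 191, and the highest on the right, at 91.4%.

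Which small RNAs differed between the first and the last stage was tested over the 238 sequences with enough reads, by edgeR's quasi-likelihood test on TMM-scaled counts in a model of all 12 libraries, with Benjamini-Hochberg adjustment. Only 3 DE-small RNAs passed an adjusted p of 0.05 (1.26% of those tested). The unnamed t11329296_x5768 and ptc-miR159d were upregulated and mdm-miR164c was downregulated. At the unadjusted p of 0.05 or less that the study used, 25 sequences differed (10.5% of 238, where 11.9 sequences would be expected from the threshold alone), 9 higher (3.78%) and 16 lower (6.72%) at Stage 4. The balance of directions depended on the scaling, with 17 higher and 3 lower by total mature reads. Without L, 8 of the 25 no longer had an unadjusted p of 0.05 or less (edgeR's quasi-likelihood test), all of them lower at Stage 4. These were mdm-miR482c, mdm-miR482b, mdm-miR171b, mdm-miR477b, bdi-miR167c-5p, t03271250_x5800, t03063567_x79 and t07833554_x78. The 22 sequences other than the 3 DE-small RNAs are therefore described as higher or lower and were not called.

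**Figure D2:**
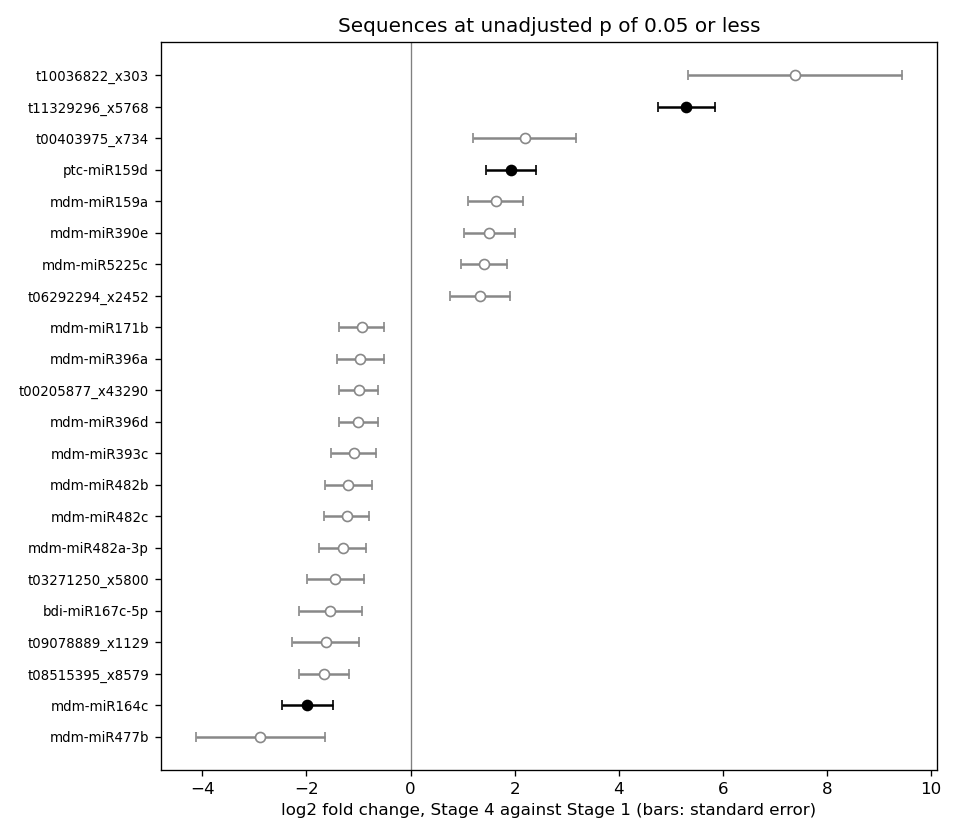
log2 fold change of Stage 4 against Stage 1 with its standard error for 22 of the 25 sequences at an unadjusted p of 0.05 or less, leaving out the 3 that had no read in one of the stages. Filled points mark the 3 sequences that passed the adjusted p of 0.05, at 5.30, 1.93 and -1.98.

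The largest change with an adjusted p under 0.05 was that of t11329296_x5768, a 21-nucleotide sequence with no database name. It was counted at 33.2, 31.5 and 25.1 CPM in libraries A, B and C and at 999, 1009 and 1540 CPM in J, K and L. The lowest Stage 4 library lay far above the highest Stage 1 library, and the log2FC was 5.30 ± 0.55 (SE, edgeR's quasi-likelihood test, adjusted p = 6.35e-07), a 39.3-fold increase. The intermediate stages placed the rise after endodormancy, since Stage 2 held 12.02 to 33.4 CPM and Stage 3 held 137 to 332 CPM. The step from Stage 2 to Stage 3 was 3.56 ± 0.51 on the log2 scale (edgeR's quasi-likelihood test, adjusted p = 0.000151) and the step from Stage 3 to Stage 4 a further 2.31 ± 0.48 (adjusted p = 0.0188). This call held in all 23 alternative fits in which the sequence was tested, with a log2FC between 4.996 and 5.78.

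The hairpin of t11329296_x5768 lay on chromosome 8, plus strand, at 11111445 to 11111630 of the GDDH13 v1.1 genome, with the small RNA at bases 11 to 31 of the precursor. It is shown because both of its arms are listed, with the mature strand (first) and the opposite strand (second) in capitals.
Precursor of t11329296_x5768: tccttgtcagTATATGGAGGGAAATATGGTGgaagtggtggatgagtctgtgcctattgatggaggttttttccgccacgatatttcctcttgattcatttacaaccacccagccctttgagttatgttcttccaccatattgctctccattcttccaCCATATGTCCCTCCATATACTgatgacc
The predicted fold by RNAfold had a free energy of -74.60 kcal/mol, with pairs at 20 of the 21 bases of the small RNA. Whether this fold meets the criteria for a microRNA was not tested here. The study's own folding analysis did not find an optimal stem-loop for this sequence, and the study dropped it from later steps. The opposite strand is listed as mdm-miR10987, and it had 0 reads in all 6 libraries of Stages 1 and 4. The increase was thus seen in the reads of 1 arm.

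The miR159 family, which in Arabidopsis acts on GAMYB-like MYB genes of abscisic acid and gibberellin responses, held members with log2FC of both signs. Sequence ptc-miR159d was at 124, 66.4 and 102 CPM in A, B and C and at 269, 404 and 443 CPM in J, K and L, without overlap. It was upregulated by a log2FC of 1.93 ± 0.48 (SE, edgeR's quasi-likelihood test, adjusted p = 0.0467), although with 1 library left out the adjusted p stayed under 0.05 only without D or without H and ranged from 0.017 to 0.533. The call was also lost with scaling by the study's sequenced reads (adjusted p = 0.162). The 20-nucleotide mdm-miR159a, which is ptc-miR159d without its last base, was at 5350, 2162 and 2044 CPM in Stage 1 and 8239, 7030 and 14373 CPM in Stage 4. Its log2FC was 1.63 ± 0.52 (SE), with an adjusted p of 0.163 by the same edgeR test, and with 1 library left out it lay between 1.34 (without L) and 2.48 (without A).

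The most abundant miR159 sequence had a negative log2FC. Sequence mdm-miR159d was at 91794, 79510 and 74456 CPM in Stage 1 and 36895, 55559 and 58536 CPM in Stage 4, a log2FC of -0.70 ± 0.37 (SE, edgeR's quasi-likelihood test, adjusted p = 0.558). The ratio of both sequences within a library does not depend on scaling. The log2 ratio of mdm-miR159a to mdm-miR159d was -4.10, -5.20 and -5.19 in A, B and C and -2.16, -2.98 and -2.03 in J, K and L, a difference of 2.44 (exact permutation p = 0.1, the smallest that 3 against 3 allows), or 2.26 without L. That of ptc-miR159d to mdm-miR159d was -9.53, -10.22 and -9.50 and then -7.10, -7.10 and -7.05, a difference of 2.67 with the same exact permutation p of 0.1. Both ratios were chosen after the values were seen, and in both the groups did not overlap.

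A predicted site for ptc-miR159d in the apple MYB65 gene MD02G1269700 is shown. The more abundant mdm-miR159d (log2FC -0.70) has the same seed and differs from ptc-miR159d at 3 of 21 positions. How mdm-miR159d pairs with this site was not tested. Capitals mark the bases that do not form a Watson-Crick pair with ptc-miR159d.
Site in MD02G1269700: UggagcucccuucaCuccaaU
The site paired with 18 of the 21 bases of ptc-miR159d. The list of GAMYB-like and R2R3 MYB regulators (miR159, miR858 and miR828) had 16 sequences tested, of which 2 were higher and 0 lower by the unadjusted threshold. Over all 238 sequences the shares were 3.78% higher and 6.72% lower. The 2 higher ones were ptc-miR159d and mdm-miR159a, which are the same sequence apart from the last base. The median log2FC of the list was 0.05, against 0.04 over all 238 sequences. The miR858 members of the study's list were close between the stages by this test, at -0.26 ± 0.67 for mdm-miR858 and -0.16 ± 0.45 (log2FC ± SE) for ath-miR858b, and the sign of both turned with the scaling by total mature reads.

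**Figure D3:**
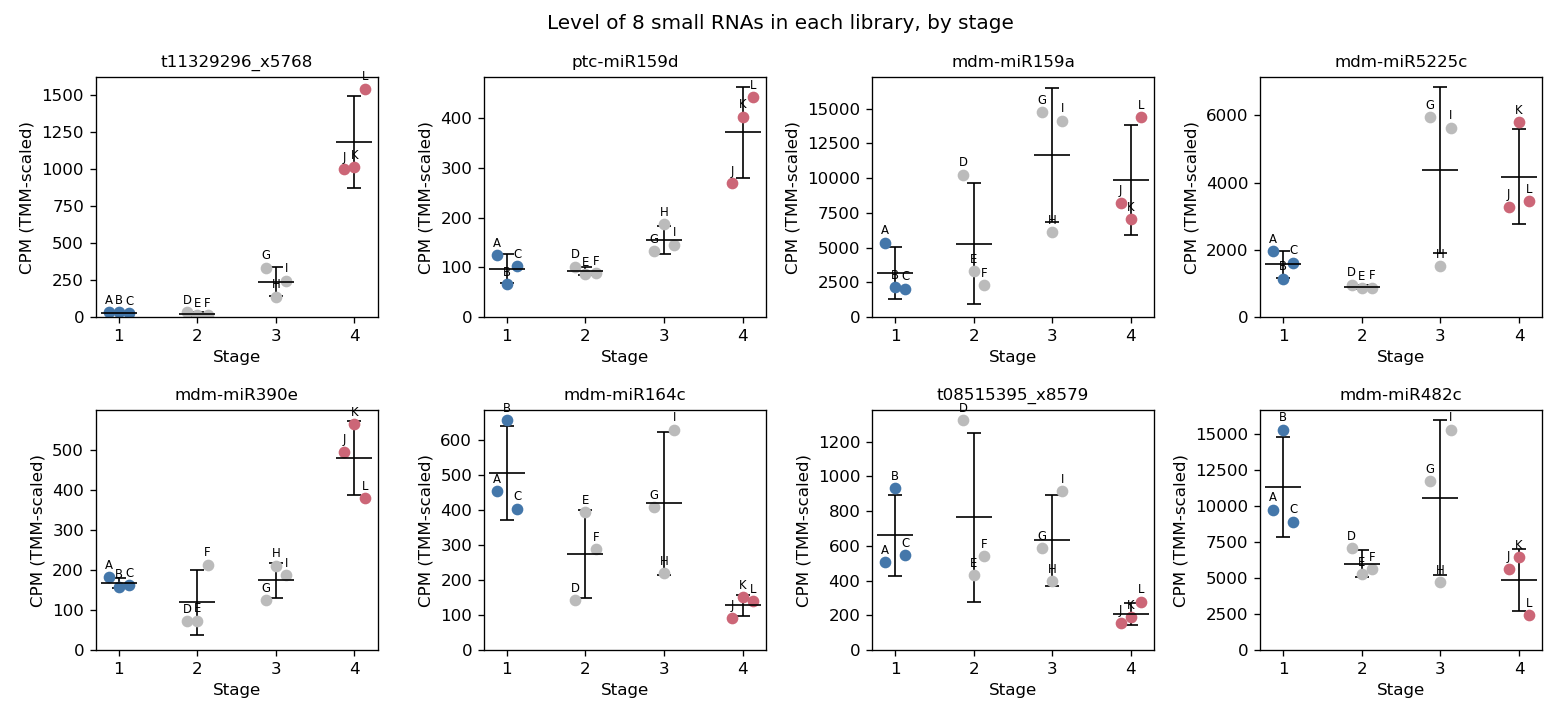
Level of 8 small RNAs in TMM-scaled CPM in each of the 12 libraries, by stage, with points for libraries (letters), a bar for the mean and whiskers for the SD. Stage 1 is blue and Stage 4 red, Stages 2 and 3 are grey, and t11329296_x5768 lies at 25.1 to 33.2 CPM in Stage 1 and 999 to 1540 CPM in Stage 4.

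Sequence mdm-miR164c, whose family limits the NAC genes of the CUP-SHAPED COTYLEDON group at organ boundaries in Arabidopsis, was downregulated. It was at 454, 658 and 405 CPM in A, B and C and at 92.8, 151 and 140 CPM in J, K and L, so that every Stage 4 library lay below every Stage 1 library. The log2FC was -1.98 ± 0.49 (SE, edgeR's quasi-likelihood test, adjusted p = 0.0467), about a 0.253-fold level. As with ptc-miR159d, leaving out 1 library kept the call only without D or without H, and the adjusted p then ranged from 0.017 to 0.533. It was also lost under all 4 other scalings, with an adjusted p of 0.0605 with median of ratios, 0.108 outside miR166 and miR165, 0.162 with the study's sequenced reads and 0.449 with total mature reads (log2FC -1.47), and 9 of 24 alternative fits kept it. Stage 2 held 144, 394 and 289 CPM in D, E and F, of which D lay within the range of Stage 4, and Stage 3 held 220 to 630.5 CPM. The log2FC of Stage 2 against Stage 1 was -0.88 ± 0.48, while that of Stage 4 against Stage 3 was -1.71 ± 0.49 (edgeR's quasi-likelihood test, adjusted p = 0.963 and 0.0894).

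The strand opposite to mdm-miR164c in 1 of its hairpins, t08515395_x8579, was also lower. It was at 504, 930 and 548 CPM in Stage 1 and 157, 188 and 279 CPM in Stage 4, again without overlap, with a log2FC of -1.67 ± 0.48 (SE, edgeR's quasi-likelihood test, adjusted p = 0.108). The hairpin is on chromosome 12, plus strand, at 29101808 to 29101937, and is shown with mdm-miR164c (first) and t08515395_x8579 (second) in capitals.
Precursor of mdm-miR164c and t08515395_x8579: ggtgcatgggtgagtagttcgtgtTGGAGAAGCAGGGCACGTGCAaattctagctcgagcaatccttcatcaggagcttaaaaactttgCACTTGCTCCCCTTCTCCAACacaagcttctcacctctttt
The log2 ratio of t08515395_x8579 to mdm-miR164c went from 0.36 ± 0.19 (SD, n = 3) in Stage 1 to 0.69 ± 0.34 (SD, n = 3) in Stage 4, a difference of 0.32 (exact permutation p = 0.3). The mdm-miR164c sequence is shared by several hairpins, and its reads cannot be divided among them.

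A predicted site for mdm-miR164c in MD06G1196100, annotated as a NAC100 gene, is shown with the bases outside a Watson-Crick pair in capitals.
Site in MD06G1196100: AUUacgugcccugcuucucca
It paired with 18 of the 21 bases. Of the list of NAC and GRAS regulators (miR164, miR170 and miR171), 5 sequences could be tested, 2 of them lower and 0 higher by the unadjusted threshold (6.72% lower over all 238), with a median log2FC of -0.94, which was -0.19 with total mature reads and -0.55 without L. The second was mdm-miR171b, which acts on HAIRY MERISTEM GRAS genes in Arabidopsis, at 3118, 2532 and 2432 CPM in Stage 1 and 1704, 1848 and 660 CPM in Stage 4 (log2FC -0.94 ± 0.44, edgeR's quasi-likelihood test, adjusted p = 0.411). Its log2FC was -0.52 without L and -0.19 with total mature reads, and the unadjusted threshold was missed under all 4 other scalings and without any 1 of A, B, C, D, F or L.

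A second unnamed sequence, t10036822_x303, was nearly absent from Stage 1. It had 0, 0 and 1 reads in A, B and C and 51, 54 and 145 reads in J, K and L, or 52.6, 42.8 and 98.3 CPM at Stage 4. The groups did not overlap, the fitted log2FC was 7.39 ± 2.05 (SE), which depends on the prior count at such low reads, and the adjusted p was 0.0966 by edgeR's quasi-likelihood test (0.000537 by DESeq2, and between that value and 0.564 over its 22 alternative fits). It also had reads in E, F, H and I, at 4.92 to 16.5 CPM, but 0 in D and G. Its hairpin lies on chromosome 16, minus strand, at 2580371 to 2580477, with the mature strand first and the opposite strand second in capitals.
Precursor of t10036822_x303: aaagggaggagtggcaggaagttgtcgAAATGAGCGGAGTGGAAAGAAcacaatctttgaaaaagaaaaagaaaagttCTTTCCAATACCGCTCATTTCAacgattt

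Sequence mdm-miR5225c, a 22-nucleotide miRNA, was higher at Stage 4. It was at 1952, 1148 and 1623 CPM in A, B and C and at 3284, 5806 and 3443 CPM in J, K and L, and the groups did not overlap (log2FC 1.41 ± 0.44, edgeR's quasi-likelihood test, adjusted p = 0.153). The largest step was that from Stage 2 to Stage 3, with a log2FC of 2.29, against -0.06 from Stage 3 to Stage 4. Summed by family, miR5225 was at 5949, 1516 and 5636 CPM in G, H and I, so that H lay within the Stage 1 range. The family's log2FC of Stage 2 against Stage 1 was -0.79 ± 0.43. The hairpin is on chromosome 9, plus strand, at 2851317 to 2851414, and is shown with mdm-miR5225c (first) and the opposite strand (second) in capitals, as the only listed hairpin of this sequence.
Precursor of mdm-miR5225c: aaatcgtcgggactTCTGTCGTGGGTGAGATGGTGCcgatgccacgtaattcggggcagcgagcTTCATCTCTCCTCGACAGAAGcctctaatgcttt

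The miR482 family, whose members act on NLR disease resistance genes in other plants, had 3 of 6 tested sequences lower, with its superfamily, and 0 higher by the unadjusted threshold (6.72% lower and 3.78% higher over all 238), and 0 passed the adjusted p of 0.05. Sequence mdm-miR482c was at 9757, 15313 and 8923 CPM in Stage 1 and 5662, 6477 and 2420 CPM in Stage 4 (log2FC -1.22 ± 0.43, edgeR's quasi-likelihood test, adjusted p = 0.241). Sequence mdm-miR482b was at 11067, 14823 and 9495 CPM and then at 5770, 6847 and 2864 CPM (log2FC -1.19 ± 0.44). The hairpins of both lie on chromosome 13, minus strand, at 2405030 to 2405155 and at 2393892 to 2394065. The 2 sequences were counted separately, and how reads of such near-identical copies were assigned is not given in the sources used here. The median log2FC of the superfamily was -0.89, and it was -0.15 with total mature reads and -0.44 both outside miR166 and miR165 and without L. The log2FC of mdm-miR482c was -0.79 without L and -0.49 with total mature reads, and that of mdm-miR482b was -0.80 and -0.48 in the same order, and neither sequence met the unadjusted threshold in these fits. The third lower sequence, mdm-miR482a-3p, had a log2FC of -1.31 and still met that threshold without L (log2FC -1.29). It met it in 2 of the 4 other scalings, but not with total mature reads (log2FC -0.78), and missed it without B or without J.

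The strand opposite to mdm-miR482b in its hairpin is listed as mdm-miR482d. It had 6185, 4331 and 3261 reads in A, B and C and 3210, 5220 and 5835 reads in J, K and L, a log2FC of 0.10 ± 0.32 (SE). The log2 ratio of mdm-miR482b to mdm-miR482d was 1.54, 2.04 and 1.53 in Stage 1 and 0.80, 0.73 and -0.47 in Stage 4. The groups did not overlap, the difference was -1.35 (exact permutation p = 0.1, the smallest possible), and without L it was -0.94. Such a ratio could be formed with at least 10 reads of both listed strands in all 6 libraries for 5 hairpin pairs, and the groups were apart in this 1 only. With 5 exact tests that share the smallest p of 0.1, none can pass a correction for their number.

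**Figure D4:**
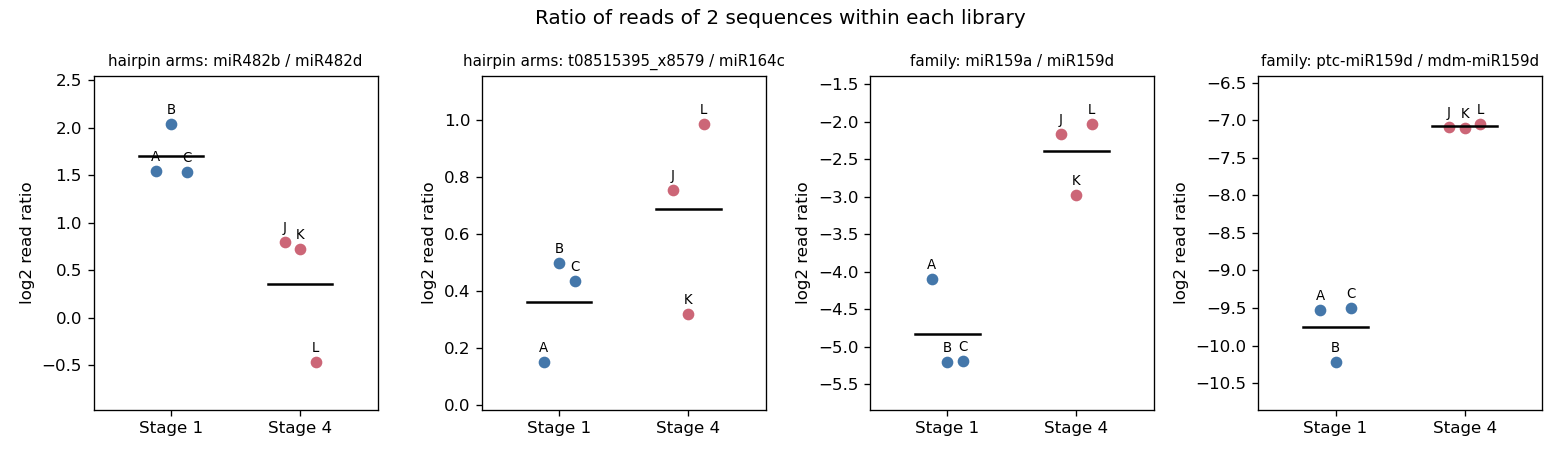
log2 ratio of the reads of 2 sequences within each library of Stages 1 and 4, with lines at the group means, for both strands of 2 hairpins and for pairs of miR159 sequences. The Stage 4 libraries all lie below those of Stage 1 for miR482b to miR482d (means 1.71 and 0.35), overlap with them for t08515395_x8579 to miR164c, and all lie above them for both miR159 pairs.

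No sequence of the auxin list passed the adjusted p of 0.05. Sequence mdm-miR390e, which in Arabidopsis triggers the small RNAs that act on AUXIN RESPONSE FACTOR genes, was at 183, 158 and 162 CPM in Stage 1 and 495, 563 and 380 CPM in Stage 4 (log2FC 1.51 ± 0.49, edgeR's quasi-likelihood test, adjusted p = 0.163). The groups did not overlap. Sequence mdm-miR393c, whose family acts on TIR1-type auxin receptors, was at 479, 490 and 384 CPM and then at 185, 216 and 235 CPM (log2FC -1.09 ± 0.44), and bdi-miR167c-5p had a log2FC of -1.54 ± 0.61, or -1.08 without L. For mdm-miR393c the unadjusted threshold was missed under all 4 other scalings and without any 1 of A, B, C or J. Its log2FC was -0.55 with total mature reads. Of the 12 tested auxin sequences, 1 was higher and 2 were lower by the unadjusted threshold (3.78% and 6.72% over all 238), with a median log2FC of -0.51. The median turned to 0.30 with scaling by total mature reads and to 0.01 without L.

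In the list of miR319 and miR396, regulators of TCP and GROWTH-REGULATING FACTOR genes, 2 of 21 tested sequences were lower and 0 higher by the unadjusted threshold. Over all 238 sequences the shares were 6.72% lower and 3.78% higher. The 2 lower sequences were mdm-miR396d (log2FC -1.003 ± 0.37) and mdm-miR396a (log2FC -0.96 ± 0.45), which share the seed TCCACAG. The threshold was met in 15 of 24 alternative fits for mdm-miR396d and in 6 of 24 for mdm-miR396a. The most abundant member, mdm-miR319a, had a log2FC of -0.22 ± 0.36, whose sign turned in several alternatives. In the lists of miR166 and miR165 (16 tested), age and flowering (miR156, miR157 and miR172, 5 tested), silencing machinery (miR162, miR168 and miR403, 5 tested), copper, phosphate and sulphate supply (5 tested) and the apple families miR7120 to miR7128 (9 tested), 0 sequences passed an unadjusted p of 0.05 in either direction. Their median log2FC was -0.27, -0.69, -0.59, 0.46 and 0.22 in that order. With scaling by total mature reads the median of miR166 and miR165 turned to 0.06, that of age and flowering to 0.13 and that of miR319 and miR396 from -0.07 to 0.53. The GAMYB and MYB median turned to -0.14 with the study's sequenced reads, and that of miR7120 to miR7128 to -0.07 without L. Without L the median of age and flowering was -0.23 and that of copper, phosphate and sulphate supply 1.08. Of the miR169 list, 0 of 2 sequences had enough reads to be tested.

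Summed by family, 164 families and unnamed sequences were tested, and 1 passed an adjusted p of 0.05 (0.61%), which was again t11329296_x5768. The miR164 family had a log2FC of -1.98 ± 0.51 (edgeR's quasi-likelihood test, adjusted p = 0.0613), miR5225 one of 1.40 ± 0.44 (adjusted p = 0.12) and miR482 one of -0.96 ± 0.39 (adjusted p = 0.38). The miR159 family, which holds ptc-miR159d, had one of -0.49 ± 0.36 (adjusted p = 0.728 by the same edgeR test).

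Other unnamed sequences at an unadjusted p of 0.05 or less were mostly rare. Sequence t09078889_x1129, which differs from mdm-miR166d by T2C and T6C, counted from its own 5′ end, was at 137, 115 and 115 CPM in Stage 1 and 27.9, 44.4 and 46.1 CPM in Stage 4 (log2FC -1.63 ± 0.65, edgeR's quasi-likelihood test, adjusted p = 0.284). With so abundant a near copy its reads are uncertain. Sequence t03063567_x79 had 5, 6 and 10 reads in Stage 1 and 0 in Stage 4, at least 2.41-fold lower against a floor of 3 reads per library, and t07833554_x78 had 0, 14 and 16 reads and then 0, at least 3.69-fold lower. Sequence t06991240_x100 had 0 reads in Stage 1 and 10, 25 and 0 in Stage 4, at least 4.10-fold higher. The lower mdm-miR477b (log2FC -2.89 ± 1.24) likewise rested on 37, 72 and 70 reads against 14, 8 and 0, with a log2FC of -2.16 without L.

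By length, 24-nucleotide sequences, the class that in plants is tied mostly to DNA methylation, were on the higher side at Stage 4. Of 93 tested, 70 had a positive log2FC, with a median of 0.55, and 3 were higher and 2 lower by the unadjusted threshold, against 10.5% in either direction over all 238. Of these, t00205877_x43290 was at 2793, 3508 and 2464 CPM in Stage 1 and 1375, 1604 and 1414 CPM in Stage 4 (log2FC -0.997 ± 0.37), and t06292294_x2452 at 126, 92.9 and 94.5 CPM and then 262, 320 and 210 CPM (log2FC 1.34 ± 0.57). For t00205877_x43290 the unadjusted threshold was missed under all 4 other scalings and without any 1 of A, B, C or J. Its log2FC was -0.41 with total mature reads. The median of 21-nucleotide sequences was -0.32 over 96 and that of 22-nucleotide sequences -0.50 over 25, of which 7 were lower and 1 higher by the unadjusted threshold (6.72% lower and 3.78% higher over all 238). With total mature reads these medians turned to 0.18 and 0.01, and outside miR166 and miR165 that of 21 nucleotides was likewise 0.18. Of the 7 lower 22-nucleotide sequences, mdm-miR482c, mdm-miR482b, mdm-miR477b, bdi-miR167c-5p and t07833554_x78 missed the unadjusted threshold without L. The 24-nucleotide median was positive under each of the 4 other scalings, from 0.54 to 1.34, and was 1.004 without L. As reads, the 24-nucleotide share of listed mature reads was 0.767% ± 0.0883 (SD, n = 3) in Stage 1 libraries and 1.25% ± 0.762 (SD, n = 3) in Stage 4 libraries (exact permutation p = 0.4), with 1.89% in J, 1.44% in K and 0.408% in L. The 20-nucleotide share, which mdm-miR159a belongs to, was 1.42% ± 0.254 (SD, n = 3) and 2.49% ± 0.704 (SD, n = 3), without overlap (exact permutation p = 0.1).

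**Figure D5:**
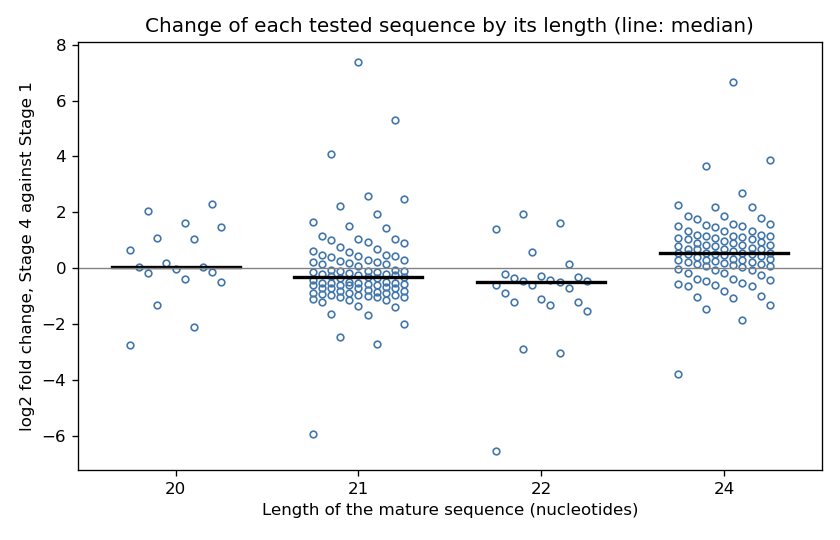
log2 fold change of Stage 4 against Stage 1 for each tested sequence of 20, 21, 22 or 24 nucleotides, with a line at the median of each length. The medians are 0.04, -0.32, -0.50 and 0.55 in that order.

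Over all 238 sequences, 32 (13.4%) had every Stage 4 library above every Stage 1 library and 33 (13.9%) had every one below. Of the 20 sequences on the study's own list, which was chosen on these libraries and is not independent evidence, 11 had an unadjusted p of 0.05 or less in this contrast, 5 higher and 6 lower. The shares over all 238 at that threshold were 10.5% in either direction, 3.78% higher and 6.72% lower. In the model of all 12 libraries, leaving out L took the count at an adjusted p under 0.05 from 3 to 1 and that at an unadjusted p of 0.05 or less from 25 to 31. In a fit of Stages 1 and 4 alone without L, chosen after the values were seen, 51 of 225 sequences passed an adjusted p of 0.05 by edgeR's quasi-likelihood test, 26 higher and 25 lower, including 22 of the 25 above. With L in that fit of both stages the count was 6. The part of library L's composition in the difference was not tested.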

How the data were processed

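Small RNAs of 12 libraries were sequenced, and those of Stages 1 and 4 were compared. Per the study's methods, the authors mapped reads to the apple genome GDDH13 v1.1 with Mir-Island 2.0, and the submitters' processing notes also name CASAVA and Bowtie 0.12.9. Trimming and mismatches are not given in the sources used here. The authors deposited raw read counts of known mature sequences and of de novo hairpins, without normalization. Columns were placed in a stage by the library letters of the study's tables. A further 48 columns (normalized values and reads of opposite strands) were not used, because only 1 column a library was placed in each table, so opposite strands were compared only where both strands have mature counts.

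Rows were merged to distinct sequences, since the same sequence was listed at several loci. Sequences were kept by filterByExpr (minimum count 10, minimum total 15), scaled by TMM and tested with edgeR 4.0.16 in R 4.3.3 by the quasi-likelihood test with Benjamini-Hochberg adjustment. Standard errors were |log2FC| over the root of the F statistic. The replicates are pools of buds. CPM are per TMM-scaled library. Ratios of arms used a pseudocount of 0.5 and exact two-sided permutation of all 20 splits. Precursors were folded with RNAfold 2.7.2. Floors are 3 counts, for 95% confidence. The fits were tested on simulated data. Alternatives were other scalings, filters, tests and left-out libraries, with DESeq2 1.42.0 among them. Sequences were considered for naming at an adjusted p under 0.05 or an unadjusted p of 0.05 or less. The study's 20 and the most abundant of each list were added, and not all of these are named in the text. The members and lists were chosen with earlier results of these data known. Target sites are those of the study's prediction, and no coordinates of genes were used.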

Additional observations from a re-analysis of the deposited data

How the results depend on the processing

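The limits are those of 3 pooled libraries per stage, of library L, and of a scaling that cannot be checked against a spike-in. Against TMM, the Stage 4 minus Stage 1 difference shifted by 0.47 (log2) with the total of mature reads, 0.45 with reads outside miR166 and miR165, 0.22 with median of ratios and 0.04 with the study's sequenced reads. No paired analysis was possible because the columns carry no replicate numbers. The cause of each change below was not tested.

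Against 3 sequences at an adjusted p under 0.05, the count was 1 with the study's sequenced reads, 5 with no filter or with the known sequences alone, 6 with at least 10 reads in every library, with Stages 1 and 4 alone or without D and L, 7 by DESeq2 and 51 with Stages 1 and 4 alone without L. It was 1 to 4 with 1 library left out, 4 without D or H and 1 without any other. Against 25 at an unadjusted p of 0.05 or less, it was 38 by DESeq2, 48 without D and L, 73 with Stages 1 and 4 alone without L, 14 with the known sequences alone, and 12 to 33 with 1 library left out. Higher against lower calls were 9 and 16 in the main scaling, 17 and 3 with the total of mature reads, 15 and 5 outside miR166 and miR165, 13 and 12 with median of ratios and 9 and 12 with the study's sequenced reads. Families at an adjusted p under 0.05 numbered 1, and 2 with the likelihood ratio test, with reads outside miR166 and miR165 or with at least 10 reads in every library, 3 with median of ratios, 4 by DESeq2, 5 with no filter, with Stages 1 and 4 alone or without D and L, 40 with Stages 1 and 4 alone without L, and 1 to 3 with 1 library left out.

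Each of the 25 sequences kept its direction in every alternative that tested it. Among the other named sequences the sign turned as follows. With the total of mature reads it was 0.10 for mdm-miR167g, 0.073 for t00969484_x10829, 0.039 for mdm-miR7121c, 0.084 for t05229383_x4081, 0.27 for mdm-miR7120a-3p, 0.23 for mdm-miR319a, 0.43 for mdm-miR858 and 0.62 for ath-miR858b. Outside miR166 and miR165 it was 0.13 for mdm-miR166d, 0.26 for mdm-miR319a, 0.21 for mdm-miR858 and 0.31 for ath-miR858b. With at least 10 reads in every library it was 0.031, 0.15, 0.075 and 0.12 for these 4. For mdm-miR319a and ath-miR858b it was 0.066 and 0.029 with median of ratios, 0.069 and 0.049 with no filter, and 0.066 and 0.029 by DESeq2. With the known sequences alone it was 0.060 for mdm-miR319a, 0.10 for mdm-miR858 and 0.18 for ath-miR858b. Without D and L it was 0.019 for mdm-miR858 and 0.26 for ath-miR858b, which was 0.10 with Stages 1 and 4 alone without L. With 1 library left out the log2 fold change ranged from -0.89 to 0.13 for mdm-miR166d, from -0.47 to 0.23 for mdm-miR319a, from -0.15 to 0.74 for mtr-miR4414a-5p, from -0.54 to 0.61 for mdm-miR858 and from -0.46 to 0.27 for ath-miR858b.
Outside miR166 and miR165, the Stage 4 minus Stage 1 difference in the share of reads was 6.52 points for 20, -5.24 for 21, -3.16 for 22 and 1.88 for 24 nucleotides.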
